A study of Rattus rattus with 18 samples.

Results

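Red blood cells carry large amounts of a few miRNAs, and 4 of them, rno-miR-451-5p, rno-miR-486, rno-miR-144-3p and rno-miR-144-5p (the prefix for rat is left out from here on), were followed here as a possible readout of blood held in rat brain tissue. They were taken from the array by their probe names, and all 4 were present among its 761 miRNA probes. The tissue came from 9 male Sprague-Dawley rats, 3 sham-operated, 3 subjected to transient middle cerebral artery occlusion (tMCAO) and 3 labelled remote limb postconditioning (PostC). In tMCAO a filament closes the artery that feeds much of the side of the brain and is then withdrawn, whereas sham-operated rats undergo surgery alone. Whether the PostC rats were occluded as well is not stated in the series description, which writes tMCAO and PostC as a joint term. A core and a peri sample of each rat were hybridised, so that 18 arrays fell into 6 groups of 3. The sample labels assign temporo-parietal cortex to core and striatum to peri, the paper's text assigns them the other way round, and core and peri are here names only. The labels name a miRNeasy extraction and the paper Trizol, and any flushing of blood from the brain is not given in the sources used here. For the transient model the paper names more than 1 time of sacrifice, without tying either to the arrays. Rat ages were not given either.

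MiR-451 and miR-144 are cut from 1 shared primary transcript that the factor GATA1 switches on in maturing red cells. MiR-451 is unusual in that Argonaute2, rather than Dicer, cuts its precursor, so that nearly all of the product is the 5' arm. MiR-486 lies within Ank1, the gene of ankyrin of the red cell membrane, and is also made in muscle. Since mature red cells have no nucleus, miR-451 and miR-486 in tissue or plasma are widely read as a sign of blood or of haemolysis.

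The mature sequences that the array files give as targets are shown to let the probes be told apart, with the seed (bases 2 to 8, by which a miRNA finds its targets) in capitals:
rno-miR-451-5p: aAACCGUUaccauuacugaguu
rno-miR-486: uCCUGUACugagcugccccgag
rno-miR-144-3p: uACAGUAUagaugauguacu
rno-miR-144-5p: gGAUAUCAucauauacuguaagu

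No other probe of the array had the seed of any of the 4, and the closest other target was 8 edits away for each of them. With bases 2 to 7 alone, miR-10b-5p matched miR-486, and miR-101a-3p and miR-101b-3p matched miR-144-3p. The members differed in base composition: miR-486 had 63.6% G and C, miR-451-5p 36.4%, miR-144-5p 30.4% and miR-144-3p 30.0%. The median over the tested miRNAs was 50%.

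MiR-451-5p was detected on all 18 arrays, and its difference between tMCAO and sham did not pass the test in either region. MiR-486 was close to the detection limit and was higher in the rat means of tMCAO than of sham, by a size that varied with background treatment and scaling. Both arms of miR-144 were detected on 0 of the 18 arrays.

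A miRNA was called detected on an array when the median of its 4 spots exceeded a limit set from the empty spots of that array, their median plus 3 scaled median absolute deviations. That limit ran from 49.1 to 566 intensity units (median 146), and between 188 and 605 miRNAs passed it per array. The 532 miRNAs detected on at least 3 arrays were tested, and the 2 members among them were miR-451-5p and miR-486. The empty spots were brighter than the median miRNA spot on 5 arrays, each of them from a tMCAO or PostC rat. Correlation between arrays of 1 group lay between 0.83 and 0.98 over the tested miRNAs, lowest in PostC core. Sham core rat 2 correlated down to 0.89 with the other sham core arrays. All 5 neuronal miRNAs examined (miR-124-3p, miR-128-3p, miR-137-3p, miR-138-5p and miR-9a-5p) were detected on all 18 arrays.

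**Figure D1:**
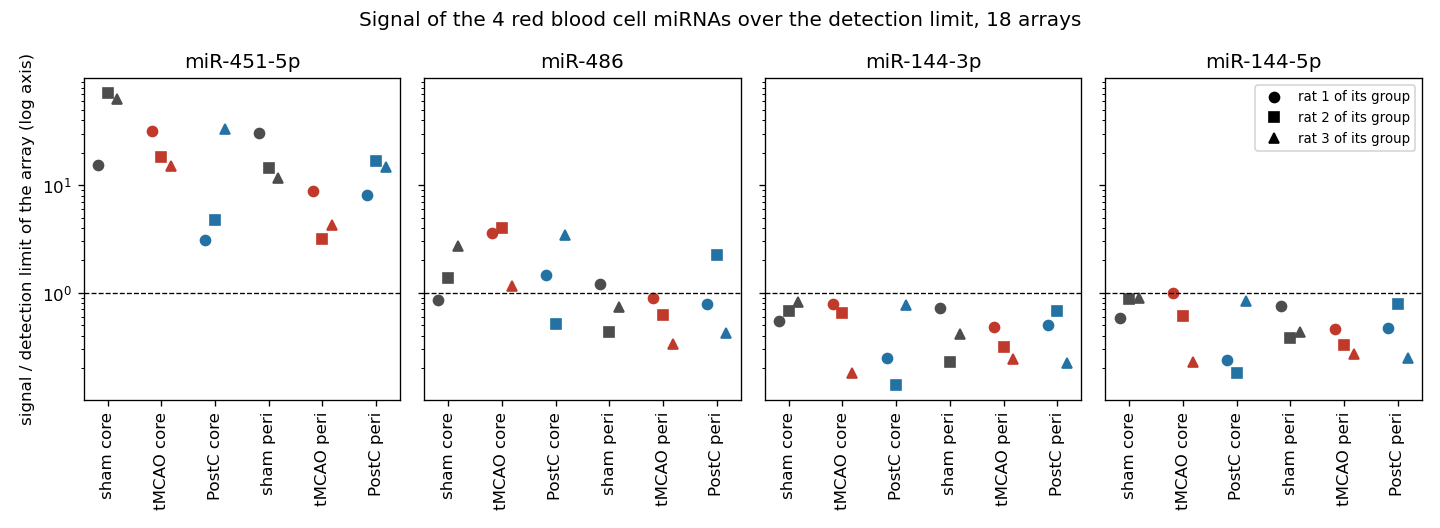
Signal of each member divided by the detection limit of the array (log axis) on the 18 arrays, by group, with 1 point per rat. The dashed line at 1 is the limit. MiR-451-5p lay above it on every array (3.09 to 71.6), miR-486 on 9 of 18, and both miR-144 arms below it throughout.

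MiR-451-5p, among the most abundant miRNAs of mature red cells, stood between 3.09 and 71.6 times above the limit (median 14.9). The values below are normalized log2 intensities. In sham core they were 11.11, 11.998 and 11.41 in rats 1, 2 and 3, and in sham peri 10.83, 10.71 and 10.13. In tMCAO core they were 11.51, 11.11 and 11.86, and in tMCAO peri 11.02, 10.39 and 11.15. The tMCAO arrays lay within or close to the sham range in both regions, and core was above peri in every rat of both conditions. In PostC core the values were 10.09, 10.45 and 10.32, below every sham core and tMCAO core array. In PostC peri they were 10.70, 9.55 and 12.63, which include both the lowest and the highest of the 18 arrays. The group means ran from 11.51 in sham core through 11.49 in tMCAO core, 10.96 in PostC peri, 10.85 in tMCAO peri and 10.55 in sham peri to 10.29 in PostC core. Each pair of neighbours in this order overlapped. On the linear scale of the authors' normalized table, sham core measured 2912 ± 848 units and tMCAO core 2808 ± 810, whereas PostC core measured 1165 ± 248 (SD, n = 3 each).

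Averaged over both regions of a rat (the rat mean), miR-451-5p differed between tMCAO and sham by 0.14 on the log2 scale (SE 0.37, 95% interval -0.68 to 0.97, adjusted p = 0.808 with limma). This difference turned to -0.44 under median scaling, with which the median of all tested miRNAs stood at -0.21. In core the difference was -0.01 (interval -0.80 to 0.77), and 0.23 without sham rat 2, whose array was the highest of its group. In peri it was 0.30 (interval -1.01 to 1.61), and -0.79 under median scaling. The interval in core thus leaves room for a fall of up to 0.80 or a rise of up to 0.77 in log2 units. The share of the 532 tested miRNAs called in these comparisons was 11.8% for rat means, 3.38% for core and 0.564% for peri.

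PostC core was lower in miR-451-5p than sham core by a log2 difference of -1.22 (SE 0.35, interval -2.002 to -0.43), a ratio of 0.430. With the GC trend removed this difference was -0.97. The 2 groups did not overlap, as was so for 22% of tested miRNAs, but the adjusted p was 0.130. Against tMCAO core the difference was -1.20 (SE 0.35, adjusted p = 0.127 with limma), again without overlap, as for 18.6% of tested miRNAs. In PostC against sham core no miRNA at all was called by limma (0% of 532), nor by the methods' t-test after adjustment, although 90 (16.9%) had an unadjusted p under 0.05 with limma, and in PostC against tMCAO core 2.26% were called. In the rat means PostC differed from sham by -0.40 (SE 0.37, adjusted p = 0.656) and from tMCAO by -0.55 (adjusted p = 0.508). Without PostC rat 2 these differences were -0.09 and -0.24, and without PostC rat 3 they were -0.83 and -0.97. In peri the PostC difference from sham was 0.41 (SE 0.61, adjusted p = 0.991). Without PostC rat 3, the rat with the 12.63 array, it was -0.43 (adjusted p = 0.861).

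Core exceeded peri in miR-451-5p by 0.28, 1.29 and 1.28 log2 units in sham rats 1, 2 and 3, and by 0.49, 0.72 and 0.71 in the tMCAO rats. In the PostC rats the difference was -0.62, 0.90 and -2.31, so that its sign varied from rat to rat. All 3 sham rats had the same sign for 42.1% of the tested miRNAs and all 3 tMCAO rats for 43.6%. The mean differences of 0.95 in sham (adjusted p = 0.903 with limma) and 0.64 in tMCAO (adjusted p = 0.745) did not pass the threshold, and 0% and 0.94% of tested miRNAs did (29 and 58 at an unadjusted p under 0.05). The difference between regions was lower in PostC than in sham by a log2 value of -1.63 (SE 0.71, unadjusted p = 0.0485, adjusted p = 0.430 with limma), and it was -0.81 without PostC rat 3.

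**Figure D2:**
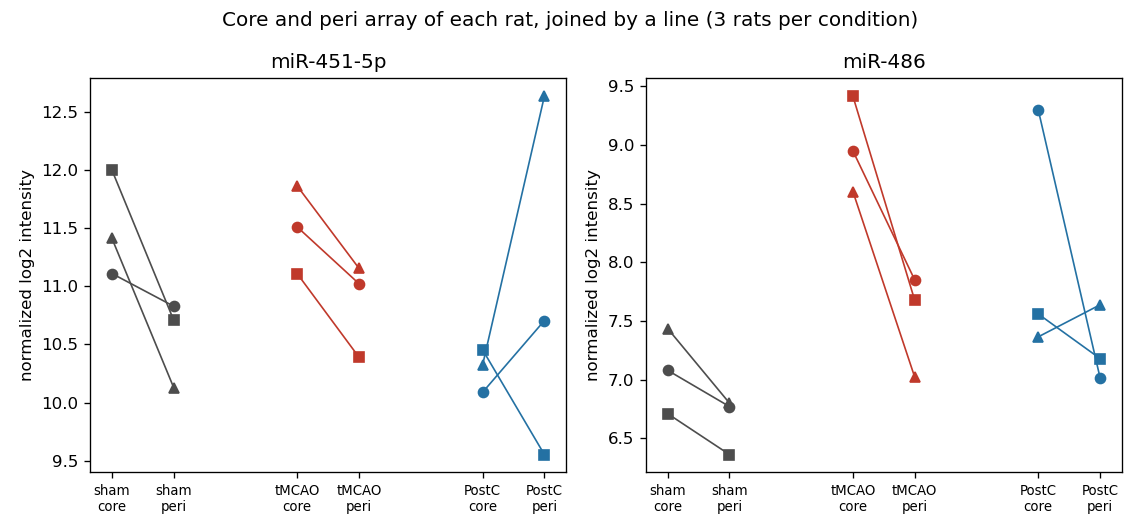
Normalized log2 intensity of miR-451-5p and miR-486 on the core and peri array of each rat, joined by a line. Circles, squares and triangles are rats 1, 2 and 3 of a condition. Core lies above peri for both miRNAs in all sham and tMCAO rats, while the lines of the PostC rats cross.

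MiR-486, which rises as red cells mature, was near the detection limit. It passed the limit on 2 of 3 arrays of sham core, 1 of sham peri, 3 of tMCAO core, 0 of tMCAO peri, 2 of PostC core and 1 of PostC peri. With a lower limit, set on the 25% of miRNA spots that were dimmest, it passed on all 18. In sham core the normalized log2 values were 7.08, 6.71 and 7.44 in rats 1, 2 and 3, and in sham peri 6.77, 6.36 and 6.80. In tMCAO core they were 8.95, 9.41 and 8.60, and in tMCAO peri 7.85, 7.68 and 7.02. Every tMCAO array was thus above every sham array of its region, as happened in one direction or the other for 41% of tested miRNAs in core, 41% in the rat means and 31.6% in peri. In PostC core the values were 9.30, 7.56 and 7.37, of which only the first fell within the tMCAO core range, and in PostC peri 7.02, 7.18 and 7.64. The group means ran from 8.99 in tMCAO core through 8.07 in PostC core, 7.52 in tMCAO peri, 7.28 in PostC peri and 7.08 in sham core to 6.64 in sham peri, and all neighbours overlapped. In the authors' normalized table tMCAO core stood at 333 ± 111 units and sham core at 56.9 ± 19.6 (SD, n = 3 each).

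In the rat means miR-486 was higher in tMCAO than in sham by 1.39 on the log2 scale (SE 0.27, interval 0.79 to 1.99, adjusted p = 0.0095 with limma), and all 3 tMCAO rats lay above all 3 sham rats. It was the only member called in any of the 14 comparisons made. In this comparison 4.51% of tested miRNAs were called higher, and 0.752% had a larger rise. The call was lost without tMCAO rat 2 (1.25, adjusted p = 0.0598) and with the methods' t-test (adjusted p = 0.0855). The size depended on scaling and background treatment, from 1.06 with median scaling to 4.32 with plain subtraction of the empty spots. The rat means include peri, where 0 of 3 tMCAO arrays and 1 of 3 sham arrays passed the detection limit. In core the difference was 1.91, or 3.77-fold (SE 0.52, adjusted p = 0.0922 with limma). It passed when only the sham and tMCAO rats were fitted (adjusted p = 0.0212), when all 18 arrays entered a common fit with a random effect of rat (adjusted p = 0.0144) and without PostC rat 1 (adjusted p = 0.0211). In peri the mean was 7.52 in tMCAO and 6.64 in sham (adjusted p = 0.160), and no fold is given since the brighter group was not above the limit. In that region the call was reached without tMCAO rat 3 (adjusted p = 0.0487) and without PostC rat 3 (adjusted p = 0.0390).

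PostC rat means of miR-486 were above those of sham by 0.82 (SE 0.27, adjusted p = 0.286 with limma), without overlap, as in 18.2% of tested miRNAs, and 0.188% of tested miRNAs were called. In core PostC differed from sham by 1.00 (SE 0.52, adjusted p = 0.344), and by 0.39 without PostC rat 1, whose array was the highest of its group. In peri, where miR-486 passed the limit on 1 of 3 arrays of each group, PostC did not pass the test against sham (adjusted p = 0.991), and no size is given. Against tMCAO the rat means differed by -0.58 (SE 0.27, adjusted p = 0.297), where 5.64% were called. Core exceeded peri by 0.31, 0.35 and 0.63 in the sham rats. In the PostC rats the difference was 2.28, 0.38 and -0.27, with a mean of 0.80 (adjusted p = 0.555 with limma) that was 0.05 without PostC rat 1. The tMCAO core arrays were at least 1.54-fold brighter than the tMCAO peri arrays (adjusted p = 0.275). A difference between core and peri in the size of the tMCAO change was not shown (adjusted p = 0.703 with limma), and tMCAO peri had no array above the limit.

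**Figure D3:**
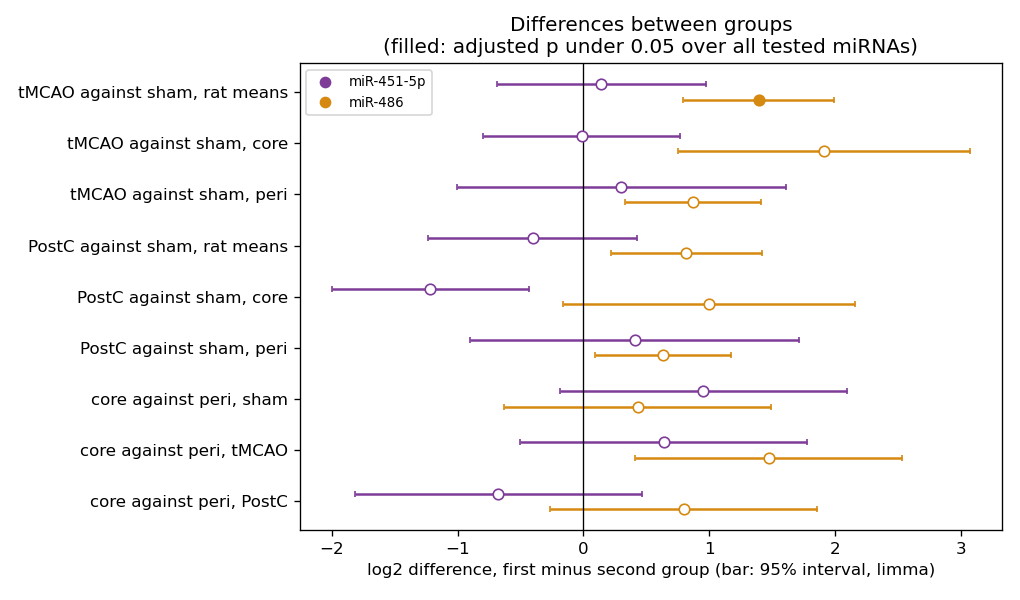
Log2 difference of miR-451-5p and miR-486 in 9 comparisons, tMCAO and PostC each against sham in rat means, core and peri, and core against peri in each condition (first group minus second, bars are 95% intervals from limma, filled points have an adjusted p under 0.05). The 1 filled point is miR-486 in the rat means of tMCAO against sham, at 1.39. The intervals of miR-451-5p span 0 in every comparison shown except PostC against sham in core. For miR-486 the point of tMCAO against sham in peri has a brighter group that was not above the detection limit. That of core against peri in tMCAO has a dimmer group that was not above it, so the size of these points is not read.

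MiR-144-3p, which derives from the miR-451 transcript and acts in red cells on the regulator NRF2, was at 0.138 to 0.814 times the detection limit. MiR-144-5p, the other arm of that hairpin, was at 0.180 to 0.992 times the limit, the highest value being that of tMCAO core rat 1. Neither arm passed on any array, and with the lower limit from the dimmest spots miR-144-3p passed on 0 and miR-144-5p on 2 (sham core rat 2 and sham peri rat 2). The normalized values of miR-144-3p spanned only 6.04 to 6.32 and those of miR-144-5p 6.001 to 6.70 over the 18 arrays. No fold is therefore given for them. MiR-451-3p, the other arm of the miR-451 hairpin and not one of the members, passed the limit on 3 arrays, in sham peri rat 1, PostC core rat 3 and PostC peri rat 2. The array with the highest miR-451-5p, PostC peri rat 3, was not among them, and there miR-144-3p stood at 0.225 and miR-144-5p at 0.246 times the limit.

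Over the 9 rat means no correlation of miR-451-5p and miR-486 passed the test. Pearson's r was -0.11 (permutation p = 0.770, exact over all orders, two-sided) and Spearman's rho was -0.15 (permutation p = 0.708), and this was the 1 pair that could be tested. Under median scaling r was -0.69 (permutation p = 0.0459). Without PostC rats 1 and 2, the farthest from the median of miR-451-5p, r was -0.10. The deviations from the condition means had an r of -0.43, given as a description. Over the 18 arrays, which share rats, r was 0.11, which put miR-486 at place 180 of 531 by likeness to miR-451-5p. The miRNAs most like miR-451-5p over the arrays were miR-152-3p (r = 0.80), miR-455-5p (0.79) and miR-199a-5p (0.79). Those most like miR-486 were miR-320-3p (0.92), let-7b-5p (0.89) and miR-674-3p (0.89). MiR-152-3p, miR-455-5p and miR-199a-5p were detected on 12, 5 and 7 of the 18 arrays, and the 3 most like miR-486 on all 18.

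**Figure D4:**
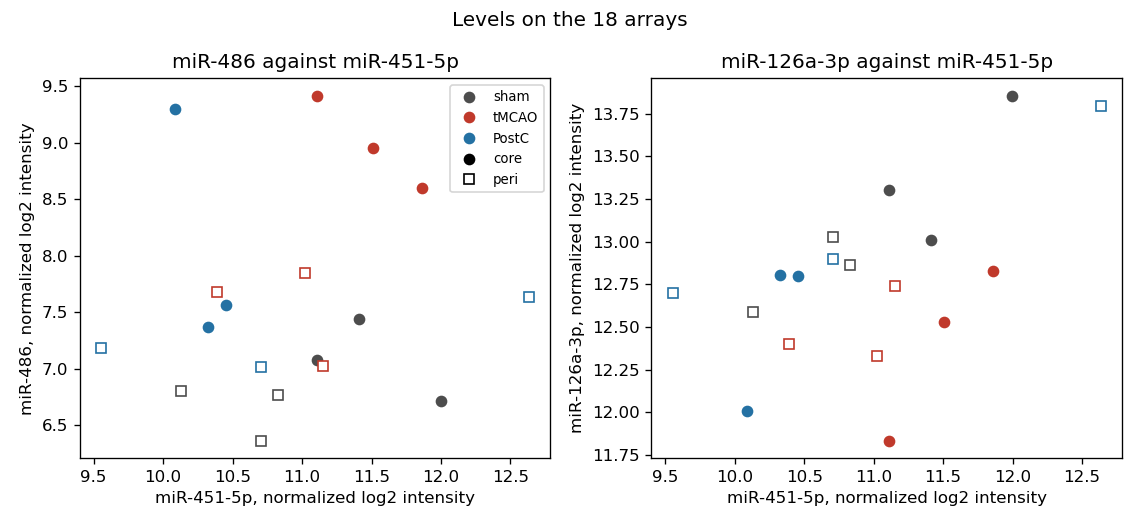
MiR-486 (left) and the endothelial miR-126a-3p (right) against miR-451-5p, as normalized log2 intensity on the 18 arrays. Filled circles are core and open squares peri arrays. The tMCAO core arrays stand high in miR-486, with miR-451-5p between 11.11 and 11.86 where the median of the 18 arrays was 10.92, and PostC peri rat 3 and sham core rat 2 stand high in both miR-451-5p and miR-126a-3p.

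The difference of the 2 members within an array (miR-486 minus miR-451-5p) cancels a shift that both share. A shift tied to base composition is not shared, since miR-486 has 63.6% G and C and miR-451-5p 36.4%. In the rat means the within-array difference was larger than in sham by 1.25 in tMCAO and by 1.22 in PostC, in each case with overlap (exact permutation p = 0.2 each, two-sided). The overlap of tMCAO with sham depended on the setting, and was absent with median scaling and with plain subtraction of either background. The within-array difference was larger in tMCAO core than in sham core by 1.93 and in PostC core by 2.22, in each case without overlap of the 3 rats with the 3 sham rats (exact permutation p = 0.1, the smallest that 3 against 3 allows, two-sided). With the GC trend removed, miR-486 differed from sham core by 1.52 in tMCAO core and by 0.70 in PostC core. MiR-451-5p then differed by 0.32 and -0.97, so the excess over sham core was smaller in both. No value is given for peri, where miR-486 was above the limit on 0 of 3 tMCAO, 1 of 3 sham and 1 of 3 PostC arrays, and the rat means include these arrays. A ratio of miR-451 to miR-23a-3p, a miRNA scarce in red cells, is used to grade haemolysis in plasma. As log2 differences, miR-451-5p minus miR-23a-3p differed from sham core by -0.79 in tMCAO core and by -1.96 in PostC core (exact permutation p = 0.1 each). The sham core rats ran from -2.11 to -0.77 (rat 2) and the tMCAO core rats from -2.75 to -2.14. With plain subtraction of either background and with quantile normalization, the tMCAO core and sham core rats overlapped. MiR-23a-3p itself stood 0.77 higher in tMCAO core (adjusted p = 0.125 with limma) and 0.74 higher in PostC core (adjusted p = 0.187). In peri the ratio was 0.54 higher after tMCAO (exact permutation p = 0.2), and in the rat means it differed by -0.12 (exact permutation p = 0.9), with a sign that turned under other settings. For PostC against sham it was 0.48 in peri (exact permutation p = 0.9) and -0.74 in the rat means (exact permutation p = 0.3), so that the sign differed between the regions. The sign in peri rested on PostC rat 3. In peri the PostC rats ran from -4.06 to -0.07 (rat 3) and the sham rats from -3.15 to -2.47.

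A further 13 miRNAs abundant in red blood cells were examined, and 12 of them were tested, miR-363-3p being detected on only 1 array. In no comparison was any of the 12 called by limma or by the methods' t-test. At an unadjusted p under 0.05 with limma there were 2 of the 12 in the tMCAO rat means, where 167 of all 532 (31.4%) had one, and 4 of the 12 in PostC core against sham, where 90 of 532 (16.9%) did. For tMCAO against sham in the rat means 8 were higher and 4 lower, with a median log2 difference of 0.15 against -0.02 over all 532 tested. The largest rise, named after its value was seen, was that of miR-25-3p with 0.87 (adjusted p = 0.0577), and the lowest value was -0.48 for miR-16-5p (adjusted p = 0.166). For PostC against sham in core 4 were higher and 8 lower, with a median of -0.15 against 0.06 over all tested. In PostC against sham in peri 7 were higher and 5 lower (median 0.12), and tMCAO against sham divided 6 to 6 in core and in peri. In PostC against tMCAO all 12 had a negative difference in the rat means (median -0.17 against 0.02 over all tested), 11 did in core and 3 in peri, with none called. In PostC against sham in core miR-19b-3p, also named after its value was seen, had a log2 difference of -2.03 (adjusted p = 0.0568), the smallest p of all 532. MiR-16-5p had -1.08 (adjusted p = 0.130). The size for miR-19b-3p is uncertain, since it was detected on 1 of 3 PostC core arrays and on 3 of 3 sham core arrays.

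Over the 18 arrays the r of these 12 with miR-451-5p ran from -0.24 to 0.67 (median 0.40). The highest were miR-19b-3p (0.67), miR-20a-5p (0.66) and miR-106b-5p (0.64). Their r with miR-486 ran from -0.59 to 0.79 (median 0.04), with miR-92a-3p (0.79) and miR-25-3p (0.67) at the top and miR-16-5p (-0.59) at the bottom. With miR-451-5p 5 of the 12 had an r above 0.5, beside 8.10% of all tested miRNAs (median r -0.01). With miR-486 3 of the 12 did, beside 22.0% of all tested (median r -0.07). PostC peri rat 3, the highest array for miR-451-5p, was also the highest of the 18 for 6 of the 12, and for 10.5% of all tested miRNAs. These 6 were miR-93-5p, miR-106b-5p, miR-20a-5p, miR-185-5p, miR-107-3p and miR-22-3p. That array is 1 library, so it does not describe the PostC group. It also had the fewest miRNAs detected of the 18 arrays (188), and its median empty spot (125 units) was brighter than its median miRNA spot (99.4).

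**Figure D5:**
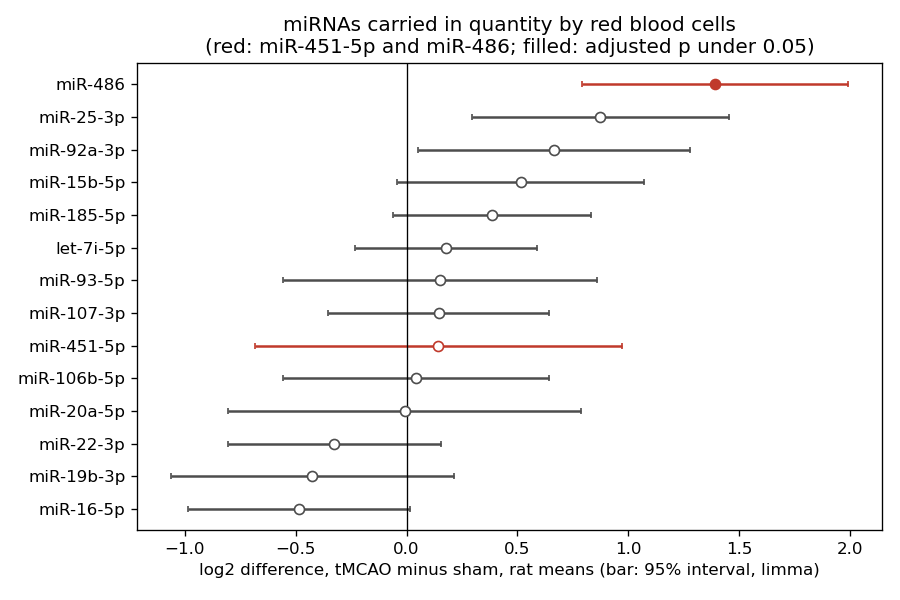
Log2 difference between tMCAO and sham rat means for miR-451-5p, miR-486 and the 12 other tested miRNAs of red blood cells (bars are 95% intervals from limma, n = 3 rats per group). MiR-486 (1.39) is the only filled point, with an adjusted p under 0.05, and the others spread from -0.48 to 0.87.

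Some markers of other cell types differed between the same groups. Of the 6 leukocyte miRNAs 5 were tested, and miR-150-5p, of lymphocytes, was called higher after tMCAO in the rat means (0.92, adjusted p = 0.0298), where 4.51% of all tested were called higher, and in core (1.55, adjusted p = 0.0318), where 1.69% were. MiR-155-5p, induced in activated immune cells, was detected on 2 tMCAO core arrays and 1 PostC core array and on 0 of the sham arrays. It entered the test only through the groups in which it was high, so its test is not counted here. MiR-142-3p, a defining leukocyte miRNA, was detected on only 1 array. The r with miR-486 over the arrays was 0.80 for miR-150-5p, and with miR-451-5p it was -0.19. The other tested leukocyte miRNAs were not called. MiR-342-3p differed by -0.0039 in the rat means. MiR-223-3p, of myeloid cells, had an adjusted p of 0.259 and was detected on 2 tMCAO core arrays, 1 PostC core array, 1 sham core array and 0 peri arrays, so no size is given. MiR-142-5p had an adjusted p of 0.319 and was detected on 0 of the tMCAO arrays and 3 of the sham arrays. The r of these 3 with miR-486 was 0.55 for miR-223-3p, -0.26 for miR-142-5p and -0.10 for miR-342-3p, and that of miR-342-3p with miR-451-5p was -0.66. The mean log2 level of the 6 was 8.10 to 8.40 in sham core and 8.55 to 8.99 in tMCAO core, and PostC core (8.35 to 9.30) overlapped both. In peri the ranges overlapped, with 7.90 to 8.02 in sham, 7.86 to 8.30 in tMCAO and 7.86 to 8.12 in PostC. These means include miR-155-5p, whose test is not counted, and miR-142-3p, detected on only 1 array. The gap between sham core and tMCAO core is therefore a description only. Of all tested miRNAs taken singly, 41% did not overlap between these 2 groups. Of the 5 neuronal miRNAs 2 were called lower in the rat means, as were 7.33% of all tested: miR-137-3p (-1.61, adjusted p = 0.0184) and miR-9a-5p (-1.20, adjusted p = 0.0351), and their r with miR-486 was -0.83 and -0.81. The other 3 were not called, miR-128-3p differing by 0.44, miR-138-5p by 0.06 and miR-124-3p by -0.01, with an r with miR-486 of 0.46, 0.35 and -0.08. The endothelial miR-126a-3p had an r of 0.56 with miR-451-5p and -0.62 with miR-486, and differed by -0.66 between tMCAO and sham (adjusted p = 0.112). The oligodendrocyte miR-338-3p differed by -2.08 in the rat means (adjusted p = 0.0583) and miR-219a-5p had an adjusted p of 0.0708, with no size given since it was detected on 0 of the tMCAO arrays. Thus 0 of 2 endothelial and 0 of 2 oligodendrocyte miRNAs were called by limma, and 3 of these 4 had an unadjusted p under 0.05, beside the 31.4% of all tested. MiR-122-5p, which reaches plasma from the liver, was detected on 1 array. The part of these cell types in the miR-486 and miR-451-5p values was not tested, and in bulk tissue fewer cells of a type and less RNA per cell cannot be told apart.

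The ranges of the relation of signal to base composition did not overlap between sham and tMCAO in core, whereas they did in peri. The slope of log2 intensity on GC content ran from -0.39 to -0.18 per 10 percentage points in sham core, from -0.07 to 0.17 in tMCAO core and from -0.13 to 0.07 in PostC core. In peri it ran from -0.27 to -0.07 in sham, from -0.12 to -0.08 in tMCAO and from -0.21 to -0.13 in PostC. The 93 tested miRNAs with 60% or more GC, the class of miR-486, had a median difference of 0.13 between tMCAO and sham rat means, with 6 called higher and 2 lower, beside 24 higher and 39 lower over all 532. The 95 with under 40%, the class of miR-451-5p, had a median of -0.41, with 1 called higher and 14 lower. For PostC against sham in core the class under 40% had a median of -0.44 and the class of 60% or more 0.17, against 0.06 over all 532. With the GC trend removed from each array the tMCAO difference of miR-486 in the rat means was 1.15 (adjusted p = 0.0127 with limma) and that of miR-451-5p was 0.35 (adjusted p = 0.552). The detection limit lay between 49.1 and 161 units in sham core, 77.4 and 240 in tMCAO core, 83.0 and 566 in PostC core, 84.9 and 171 in sham peri, 80.9 and 346 in tMCAO peri and 52.9 and 329 in PostC peri, so that all 6 ranges overlapped. The number of miRNAs detected did not overlap between tMCAO peri (189 to 230) and sham peri (318 to 471). It was 233 to 447 in tMCAO core and 336 to 509 in sham core. Detection counts in tMCAO peri thus come from arrays on which fewer miRNAs of any kind passed the limit. The spots of miR-486 on tMCAO core rat 1 ranged from 255 to 604 units and those of miR-451-5p on sham peri rat 1 from 1287 to 3307, the widest of the 18 arrays for each.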

How the data were processed

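Single-colour (Cy5) miRNA arrays of 18 brain samples from 9 rats were used, 3 rats per condition with a core and a peri array each. For every spot the authors deposited a median pixel intensity, not background-subtracted, and per probe a linear normalized intensity (background subtracted, LOWESS), which served as an alternative. Spot intensities were corrected with normexp (offset 50), log2 transformed, normalized by cyclic loess and averaged over 4 spots. This scaling takes rises and falls to balance, so differences are relative to the other miRNAs. Detection was set from 612 empty spots, and a filter of 3 arrays left 532 of 761 miRNAs. Conditions were compared with limma 3.58.1 (R 4.3.3, variance trend) on rat means, core, peri and core minus peri, with Benjamini-Hochberg adjustment over all 532 at 0.05. The rat was the replicate. Permutation tests used Python 3.11.15. The fit was tested on simulated data. Array intensities carry no counting error, and the number of arrays limits the precision.

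The members and all lists were chosen with earlier results of these data known. Named miRNAs were the members, their 3 most similar miRNAs by Pearson's r, the 13 other red blood cell miRNAs by counts with those past the threshold, and miR-23a-3p. Outside that rule, single red blood cell miRNAs were named after their values were seen, and the leukocyte, neuronal, endothelial, oligodendrocyte and liver markers were named as lists. Alternatives were other background corrections, scalings, filters, tests and blocks, and leaving out each rat. Settings for the within-array differences were added after seeing the data. Replicate numbers belong to different rats in each condition, and the deviations of same-numbered rats correlated between -0.40 and 0.23, so they pair nothing between conditions. No genome was used here, so no positions of the miRNA genes are given.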

Additional observations from a re-analysis of the deposited data

How the results depend on the processing

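Of the members, only miR-486 in the rat means of tMCAO against sham was past the threshold (1 member). That count was 0 with the methods' t-test, and 0 with only miRNAs detected on all 18 arrays, a filter that removes miR-486 from the test. In tMCAO core the count was 0 and became 1 with only the 2 groups compared and with a common fit of all 18 arrays with a random effect of rat. Leaving out each rat gave counts from 0 to 1 in the tMCAO rat means, in tMCAO core and in tMCAO peri, and 0 in all other comparisons. The replicate number as a block changed no call of a member (count 1 in the tMCAO rat means, 0 elsewhere), and neither did the unpaired fit without a replicate block for core against peri. The number of arrays with miR-486 detected rose from 9 to 18, and that of miR-144-5p from 0 to 2, with the limit from the dimmest spots.

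The tMCAO difference of miR-451-5p kept its sign in 15 of 16 alternative settings in the rat means and in peri, and in 12 of 16 in core. It passed the threshold in 0 of them. In the rat means it was -0.44 with median scaling, and from -0.0236 to 0.36 when each rat was left out. In core it was 0.18 with plain subtraction of the empty spots, 0.14 with the dimmest spots as background, 0.14 with quantile normalization, 0.32 with the GC trend removed, and from -0.21 to 0.23 when each rat was left out. Median scaling gave -0.79 in peri, 0.69 for the change in core against that in peri, and -0.15 for PostC against sham in peri. With that scaling the medians over all tested miRNAs were -0.42, 0.24 and -0.19 in these comparisons. The tMCAO difference in peri ran from 0.087 to 0.53 when each rat was left out. PostC against tMCAO in peri was -0.29 with quantile normalization, -0.0061 with the deposited intensities at either floor, and from -0.73 to 0.81 when each rat was left out, the lowest value without PostC replicate 3. With each rat left out, PostC against sham in peri ran from -0.43 to 1.11, core against peri in PostC from -1.46 to 0.14, and, for miR-486, the PostC change in core against that in peri from -0.38 to 0.90. The tMCAO difference of miR-451-5p minus miR-23a-3p in the rat means, -0.12 with the settings used throughout, was 0.32 with plain subtraction, 0.069 with quantile normalization and 0.065 with the GC trend removed. The correlation of the members was 0.10 with plain subtraction, 0.10 with quantile normalization, 0.12 with the GC trend removed and -0.69 with median scaling (permutation p = 0.0459), and ran from -0.27 to 0.077 when each rat was left out. The r of the deviations from the condition means ran from -0.85 with median scaling to -0.0054 with plain subtraction of the empty spots. Without PostC rats 1 and 2, r was -0.81 with median scaling (permutation p = 0.0222) and 0.33 with quantile normalization. The cause was not tested. With 3 rats per group and miR-486 near background, small changes could not be detected.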
